A study of Mus musculus with 6 samples.

Results

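The nuclear-encoded subunits of respiratory complex I were taken from the deposited gene table as every row whose symbol is Nduf followed by the letter a, b, c, s, v or ab and a number. This gave 37 of the 15118 genes in the table: 13 Ndufa, 1 Ndufab, 10 Ndufb, 2 Ndufc, 8 Ndufs and 3 Ndufv genes. The rule uses the symbol and no measured value, although the family was picked for study with earlier results of these data known. The subunits that mitochondrial DNA encodes, and the assembly factors named Ndufaf, fall outside it.

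Complex I oxidises NADH, passes the electrons through a flavin and a chain of iron-sulfur clusters to ubiquinone, and pumps protons across the inner mitochondrial membrane. Its parts are built as modules: the N module at the tip of the matrix arm binds NADH, the Q module below it reduces ubiquinone, and the proximal and distal membrane arms carry the proton pumps. The heart is rich in this enzyme, and heart muscle of the embryo gains mitochondria and respiratory capacity as it matures. HIF1, of which Hif1a encodes the oxygen-regulated subunit, is known for raising glycolytic genes and restraining mitochondrial respiration when oxygen is low.

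The RNA came from whole mouse hearts of the Black-Swiss strain, dissected at E12.5, mid-gestation. All 6 hearts were heterozygous for NKX2-5 Cre, a recombinase placed in the Nkx2-5 gene, which cardiac progenitors and their muscle descendants use, and which deletes floxed DNA in those cells. The 3 control hearts (numbers 2, 5 and 9) carried Hif1a WT/flox and the 3 mutant hearts (numbers 5, 8 and 10) carried Hif1a Null/flox. Recombined cells therefore keep a working allele in controls only, and cells without Cre activity also have fewer working alleles in the mutants. A whole heart is a mixture, so fewer cells of a type and less RNA per cell cannot be told apart. Nothing in the labels says whether hearts share a litter, so the p-values measure the spread between these hearts.

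The unit is RPKM, reads per kilobase of exon, scaled to the reads of the library. Values imply 101500000 to 158800000 reads per heart. The fewest reads this gives behind a subunit in a heart is 4374, for which counting independent reads would give an SD of 0.022 on the log2 scale, against a median SD between hearts of 0.11 over the subunits. Hif1a itself measured 61.1, 46.4 and 46.4 RPKM in controls 2, 5 and 9 and 75.7, 55.0 and 77.7 RPKM in mutants 5, 8 and 10, a log2 change of 0.43 ± 0.16 SE (limma, adjusted p = 0.358). A value summed over the gene's exons does not read the deletion and so does not check the genotype. The muscle genes Tnnt2 and Myl2 were abundant in every heart, at no less than 2582 and 5515 RPKM. Control 9 and mutant 8 had almost no reads of chromosome Y genes, which the other 4 hearts expressed. Over all 13080 genes tested, 107 passed an adjusted p of 0.05, and this count moved between 40 (without mutant 10) and 198 (without mutant 5) when 1 heart was left out. It fell to 43 without control 5, 52 without control 2, 67 without control 9 and 53 among the 4 hearts that express chromosome Y genes.

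Short stretches at the starts of these genes show what part of the family shares in sequence. RefSeq windows on GRCm38.p6, of 250 bases before and 50 after a transcription start, were at hand for 33 of the 37 genes, 31 of them with 1 window. Both strands were searched for the YY1 core AAGATGG, the NRF1 half-palindrome GCATGCGC, the ETS core CCGGAAG and the hypoxia response core ACGTG. YY1, NRF1 and the ETS factor GABPA are known regulators of respiratory chain genes, and ACGTG lies within the sites that HIF1 binds. The YY1 core was in 7 of the 31 windows, or 22.6%, against 7.93% of the 6987 tested genes with 1 window. All 7 matches lay after the start and on the gene's own strand, which held for 3.21% of the tested genes' windows. They are shown because they line up with each other, with the core in capitals and read 5′ to 3′ on the gene's strand:
Ndufs7: aaggccgaggccAAGATGGcggcg
Ndufs6: agggtcaccggcAAGATGGcggcg
Ndufs4: tttgcctacaggAAGATGGcggcg
Ndufa9: gcattgtgggagAAGATGGcggcc
Ndufc1: agcctgcggaacAAGATGGcgccg
Ndufb8: gcggagaaggtgAAGATGGctgcc
Ndufa3: gccgccaagaacAAGATGGccggg
The core begins 25 bases after the start in Ndufs7 (chr10:80249461-80249484, plus strand), 34 in Ndufs6 (chr13:73328438-73328461, minus strand) and 36 in Ndufs4 (chr13:114388048-114388071, minus strand). It begins at base 30 in Ndufa9 (chr6:126849104-126849127, minus strand), 23 in Ndufc1 (chr3:51408922-51408945, minus strand), 39 in Ndufb8 (chr19:44555393-44555416, minus strand) and 23 in Ndufa3 (chr7:3617383-3617406, plus strand). In 7 of these 7 genes the ATG inside the core is a start codon in GENCODE M21, so the letters span the end of the 5′ UTR and the first codon. The same was true of 148 of the 224 tested genes with such a match, 66.1%. The match is a description of letters, and the 7 genes ranged from the highest log2 change of the family, 0.52 for Ndufs7, to 0.00 for Ndufs4. Their median log2 change was 0.20, against 0.21 for the 24 genes whose window lacks the core.

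The NRF1 half-palindrome was in 3 of the 31 windows, or 9.68%, against 6.04% of the tested genes, and all 3 matches lay before the start. They are printed to show the letters, with the match in capitals:
Ndufa8: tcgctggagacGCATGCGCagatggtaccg
Ndufa6: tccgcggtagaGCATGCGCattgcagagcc
Ndufa11: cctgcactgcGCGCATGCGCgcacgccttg
The match begins 8 bases before the start in Ndufa8 (chr2:36049328-36049357, minus strand) and 83 before it in Ndufa6 (chr15:82354356-82354385, minus strand). In Ndufa11 (chr17:56717692-56717721, plus strand) 2 matches overlap, the first on the opposite strand from 60 bases before the start and the other on the gene's strand from 58 before it. The ETS core was in 4 of the 31 windows, or 12.9%, against 20.0% of tested genes. The hypoxia response core was in 5, or 16.1%, against 27.1%. The median log2 change was 0.23 in the 3 genes with the NRF1 half-palindrome and 0.20 in the 28 without. For the ETS core it was 0.28 in the 4 genes with it and 0.17 in the 27 without. For the hypoxia response core it was 0.26 in 5 genes and 0.18 in the 26 without. These shares and medians have no test, and the absence of a motif says only that its letters are not in this window.

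Transcripts of complex I measured a little higher in Hif1a mutant hearts almost throughout the family, by a median of 0.20 on the log2 scale, and no single gene passed the test. The log2 change, mutant minus control on log2(RPKM + 1), was positive for 34 of the 37 genes, against 42.6% of all genes tested. It ranged from -0.03 for Ndufs1 to 0.52 for Ndufs7, while the median over all tested genes was -0.03. In 21 genes the 3 mutant hearts were all above the 3 control hearts, and in 0 were they all below, against 7.60% of all tested genes with mutants above. An unadjusted p under 0.05 with mutants higher was found for 16 of the 37 genes, against 4.92% of tested genes. None of the 37 passed an adjusted p of 0.05 in limma, which 0.818% of tested genes did. The smallest adjusted p was 0.113, for Ndufb10, and over the 16 other settings tried the smallest of the family lay between 0.0764 and 0.405, again with 0 genes past the threshold.

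**Figure D1:**
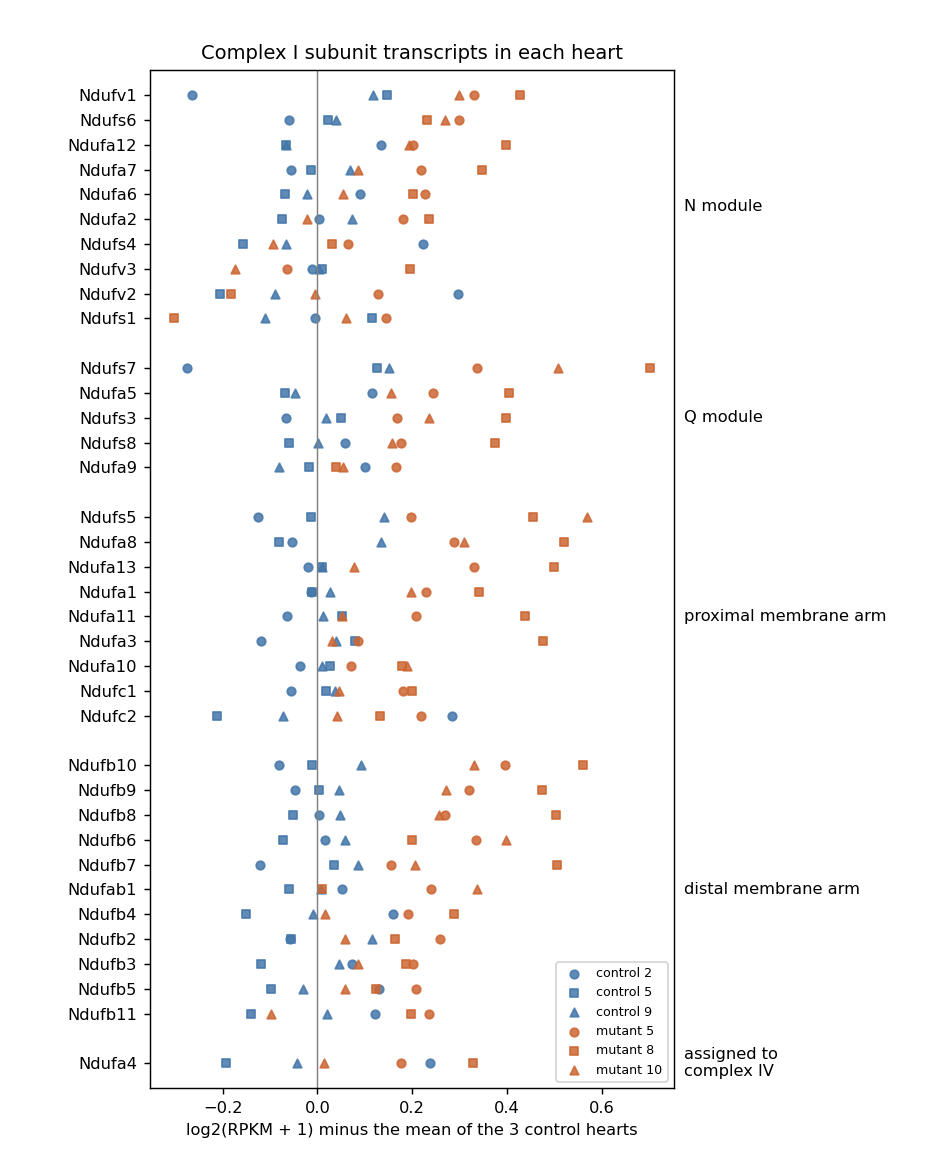
Each row is 1 of 36 complex I genes, grouped by module, and each point a heart: log2(RPKM + 1) minus the mean of the 3 controls, blue for control and orange for mutant hearts. Mutant points lie to the right of the controls in most rows, and the 4 rows at the foot of the N module, Ndufs4, Ndufv3, Ndufv2 and Ndufs1, show both colours mixed.

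The family is highly expressed, so genes bounded by its range of length and its lowest level give a closer background than the whole table. The bounds are wide and do not match the genes in length. Exon lengths of the family ran from 419 to 6883 bases, with a median of 1217 against 3384 over all tested genes. Among the 1350 tested protein-coding genes in the family's range of exon length and at or above its lowest mean level, 64.4% had a positive change, 20.7% had mutants all above controls and the median log2 change was 0.06. In the family the shares were 91.9% and 56.8%. Without the lower bound on level, 9596 genes in the same length range gave 45.8%, 8.74% and a median of -0.02. An unadjusted p under 0.05 in limma with mutants higher was found for 12.7% of the 1350 genes and 43.2% of the family. Within the family the Spearman correlation of the log2 change with mean level was -0.14, and with exon length -0.11, across 37 genes that share the same 6 libraries.

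By heart, the median over the family, relative to the control mean, was -0.01, -0.02 and 0.02 in controls 2, 5 and 9. It was 0.21, 0.29 and 0.09 in mutants 5, 8 and 10, so the genotypes did not overlap. Mutants 5, 8 and 10 had 36, 35 and 32 of the 37 genes above the control mean. Mutant 8 was the highest of all 6 hearts for 22 genes, and mutant 10 was the lowest mutant for 24. Control 2 was the highest of all 6 for 3 genes, Ndufc2, Ndufv2 and Ndufs4. Controls 2 and 5 were each the lowest of all 6 for 17 genes. The summed level of the 36 genes other than Ndufa4 was 4050 to 4229 RPKM in controls against 4578 to 5064 RPKM in mutants. Mutant 8 is also the heart with the most 5S ribosomal RNA (184 RPKM against 10.2 to 111 in the others), the largest haemoglobin share (6.12% against 3.76 to 5.17%) and the fewest implied reads, and the part of these in its values was not tested. Without mutant 8 the family median was 0.15, with 35 genes positive against 48.9% of tested genes in that fit. In the 4 hearts other than control 2 and mutant 8, it was 0.19, with 35 positive against 45.8%.

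In the N module, where NADH is oxidised, 7 of 10 genes had a positive change, 4 had mutants all above controls and the median log2 change was 0.15. Beside this and the counts by module below, 42.6% of all tested genes had a positive change and 7.60% had mutants all above controls. Among the 1350 protein-coding genes within the family's bounds of length and level, the shares were 64.4% and 20.7%. Ndufv1 (ENSMUSG00000037916, mm10 chromosome 19, 4007384 to 4012806) encodes the subunit that holds the flavin and the NADH site. It measured 80.8, 108 and 105 RPKM in controls 2, 5 and 9 and 122, 131 and 120 RPKM in mutants 5, 8 and 10. The groups did not overlap, and control 2 lay well below the other controls. Its log2 change was 0.35 ± 0.12 SE (limma, adjusted p = 0.325). Ndufs6, an accessory subunit at the joint of the N and Q modules, measured 130, 137 and 139 RPKM in controls and 167, 159 and 163 RPKM in mutants, with the smallest SE of the module and a log2 change of 0.27 ± 0.08 SE (limma, adjusted p = 0.268).

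The N module also held all 4 genes of the family with a change between -0.05 and 0.05. Ndufs1 (ENSMUSG00000025968, chromosome 1, 63143596 to 63176833), the largest core subunit and a carrier of several iron-sulfur clusters, measured 133, 145 and 123 RPKM in controls and 147, 108 and 139 RPKM in mutants. Mutant 8, the highest heart for most of the family, was here the lowest of all 6. The log2 change was -0.03 ± 0.13 SE, with a 95% interval from -0.33 to 0.26. Ndufv2, which holds an iron-sulfur cluster beside the flavin subunit, measured 185, 130 and 141 RPKM in controls and 164, 132 and 150 RPKM in mutants. Control 2 was the highest and control 5 the lowest, with the mutants between them, and the log2 change was -0.02 ± 0.14 SE, with an interval from -0.34 to 0.30. Ndufs4, an accessory subunit whose loss causes a Leigh-like disease, measured 101, 77.1 and 82.2 RPKM in controls and 90.1, 88.0 and 80.7 RPKM in mutants, again with control 2 on top. Ndufv3, a small accessory subunit, measured 49.1, 49.8 and 49.6 RPKM in controls, within a span of 1 RPKM, and 47.3, 56.8 and 43.8 RPKM in mutants, on both sides of them. For Ndufs1, Ndufv2, Ndufv3 and Ndufs4 the sign of the log2 change depended on which heart was left out, so no direction is given for them. The intervals of these 3 genes and of Ndufs4 still hold changes as large as the family median.

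**Figure D2:**
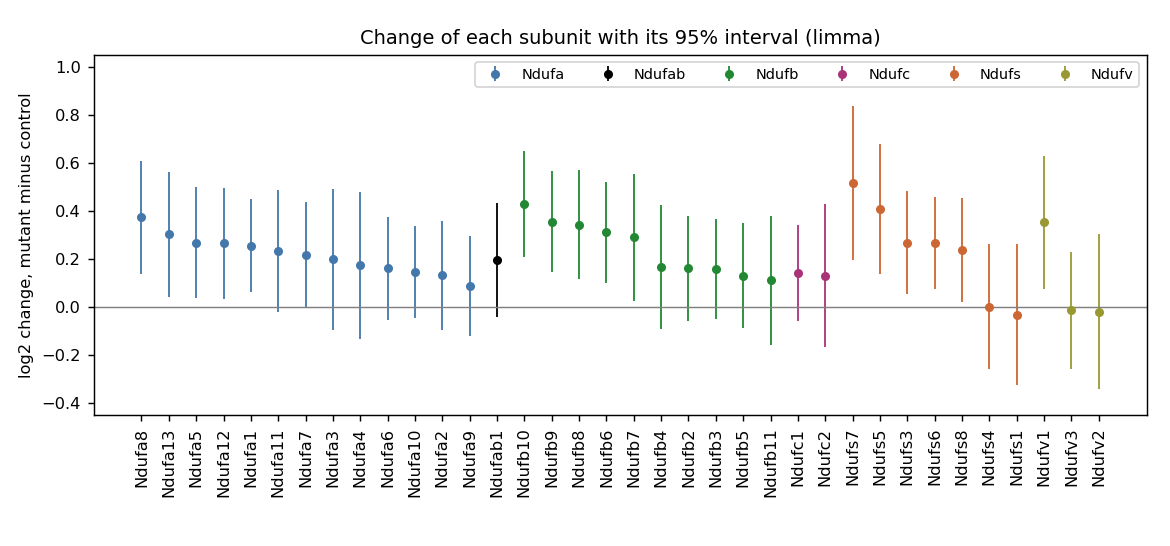
Points are the log2 changes of 36 genes, mutant minus control, bars are 95% intervals from limma, and colours give the symbol's letter group. Intervals of 16 genes lie wholly above 0, none lies wholly below 0, and Ndufv2, Ndufv3 and Ndufs1 have points just under 0.

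In the Q module, which passes electrons to ubiquinone, all 6 genes had a positive change, 5 had mutants all above controls, and the median was 0.25. Ndufs7 (ENSMUSG00000020153, chromosome 10, 80249121 to 80256794) carries the last iron-sulfur cluster before ubiquinone. It measured 55.6, 73.7 and 75.0 RPKM in controls 2, 5 and 9 and 85.5, 110 and 96.3 RPKM in mutants 5, 8 and 10. Control 2 was the lowest and mutant 8 the highest, and every mutant was above every control. The log2 change was 0.52 ± 0.14 SE (limma, adjusted p = 0.194), and it ranged from 0.28 to 0.60 over the other settings.

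Ndufs3, a core subunit of the Q module that holds no cluster, measured 53.1, 57.7 and 56.4 RPKM in controls and 62.7, 73.7 and 65.7 RPKM in mutants, a log2 change of 0.27 ± 0.09 SE (limma, adjusted p = 0.332). Ndufs8, a ferredoxin-like subunit with a pair of clusters, measured 128, 118 and 123 RPKM in controls and 139, 160 and 138 RPKM in mutants, a log2 change of 0.24 ± 0.10 SE (limma, adjusted p = 0.403). The groups did not overlap for either gene, and mutant 8 was the highest heart for both. The accessory genes Ndufa5 and Ndufa9 had log2 changes of 0.27 and 0.09, and only Ndufa9 had overlapping groups. Taking the 7 core subunits of the matrix arm from both modules, 5 had mutants all above controls and the median change was 0.24, while for the 29 accessory genes, without Ndufa4, it was 0.20 with 16 apart.

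In the proximal membrane arm, all 9 genes had a positive change, 6 had mutants all above controls and the median was 0.23. Ndufa8 (ENSMUSG00000026895, chromosome 2, 36036326 to 36049406), a subunit on the intermembrane space side, measured 80.4, 78.9 and 91.8 RPKM in controls and 102, 120 and 104 RPKM in mutants, a log2 change of 0.37 ± 0.10 SE (limma, adjusted p = 0.203). Ndufs5, which lies on the same face of the membrane in spite of its letter, measured 38.6, 41.8 and 46.6 RPKM in controls and 48.6, 58.2 and 63.1 RPKM in mutants, a log2 change of 0.41 ± 0.12 SE (limma, adjusted p = 0.236). In Ndufs5 the top heart was mutant 10, which was the lowest mutant for most of the family.

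Ndufa1, a single-pass membrane subunit on chromosome X, measured 126, 126 and 129 RPKM in controls and 149, 161 and 146 RPKM in mutants, a log2 change of 0.26 ± 0.09 SE (limma, adjusted p = 0.309). The controls lay within 4 RPKM of each other, and all mutants were above them. Ndufa13, also known as GRIM19, measured 98.8, 101 and 101 RPKM in controls and 126, 142 and 106 RPKM in mutants, a log2 change of 0.30 ± 0.11 SE (limma, adjusted p = 0.370). Its mutants were all above the controls but spread widely, with mutant 10 close to them. The Ndufc genes had the 2 smallest changes of this arm. Ndufc1 measured 72.6, 76.5 and 77.5 RPKM in controls and 85.7, 86.9 and 78.0 RPKM in mutants, and Ndufc2 182, 129 and 142 RPKM in controls and 174, 164 and 154 RPKM in mutants. The groups just failed to touch in Ndufc1 and overlapped in Ndufc2, where control 2 was the highest heart.

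In the distal membrane arm, all 11 genes had a positive change, 6 had mutants all above controls and the median was 0.20. Ndufb10 (ENSMUSG00000040048, chromosome 17, 24722060 to 24724478), an accessory subunit of this arm, had the smallest p of the family. It measured 77.6, 81.5 and 87.6 RPKM in controls and 108, 122 and 104 RPKM in mutants, 82.2 ± 5.04 against 111 ± 9.32 RPKM (SD, n = 3 each). The lowest mutant was well above the highest control, and the log2 change was 0.43 ± 0.10 SE (limma, adjusted p = 0.113), with adjusted p between 0.0849 and 0.408 over the other settings. Ndufb9 (ENSMUSG00000022354, chromosome 15, 58933756 to 58939488), a subunit of the LYR family on the matrix face, measured 230, 238 and 245 RPKM in controls and 297, 330 and 287 RPKM in mutants, a log2 change of 0.36 ± 0.09 SE (limma, adjusted p = 0.172). Ndufb8, whose protein is widely used as a marker of assembled complex I, measured 275, 265 and 284 RPKM in controls and 331, 390 and 328 RPKM in mutants, a log2 change of 0.34 ± 0.10 SE (limma, adjusted p = 0.228). In all 3 of these genes mutant 8 was the highest heart and mutants 5 and 10 lay close together.

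The other distal genes were closer to the controls. Ndufb6 and Ndufb7 had log2 changes of 0.31 and 0.29 with groups that did not overlap, and the remaining 6 had 0.11 to 0.20, of which only Ndufb3 had mutants all above controls. Ndufab1, the mitochondrial acyl carrier protein, which serves fatty acid synthesis in mitochondria as well as complex I, measured 37.2, 34.4 and 36.0 RPKM in controls and 42.5, 36.1 and 45.6 RPKM in mutants. Here mutant 8 lay among the controls, unlike in most of the family, and the log2 change was 0.20 ± 0.11 SE (limma, adjusted p = 0.533). Ndufb11, the other gene on chromosome X, had a log2 change of 0.11 ± 0.12 SE with overlapping groups. Among the 4 hearts that express chromosome Y genes, the family median was 0.17, with 35 genes positive against 46.7% of tested genes in that fit. There, 10 had an unadjusted p under 0.05 with mutants higher, in place of 16, against 3.27% of tested genes.

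Levels within the family, compared per length of exon, spanned from 29.7 RPKM for Ndufb2 to 1001 RPKM for Ndufa4, and 27 of the 37 genes lay between 50 and 200 RPKM on average. Ndufa4 was named as a complex I subunit and was later assigned to cytochrome c oxidase, complex IV. It measured 1103, 818 and 908 RPKM in controls 2, 5 and 9 and 1058, 1175 and 945 RPKM in mutants 5, 8 and 10, with overlapping groups and a log2 change of 0.17 ± 0.13 SE (limma, adjusted p = 0.667). Ndufb8 at 312, Ndufb9 at 271 and Ndufa6 at 241 RPKM followed it. Ndufb2 measured 26.8, 26.9 and 30.4 RPKM in controls and 33.7, 31.5 and 29.2 RPKM in mutants, again with overlap. The lowest 3 genes, Ndufb2, Ndufb7 and Ndufab1, were also those with the longest exon sets behind their values, of 5628, 4522 and 6883 bases against a median of 1217. An RPKM over exons that few transcripts use understates a gene, so the order of levels is read with that in mind. Across the 37 genes the Spearman correlation of mean level and exon length was -0.37. The genes lie on 15 chromosomes, with 5 of them on chromosome 17 and 2 on chromosome X.

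The genes that build complex I, and the rest of the respiratory chain, were set beside it. Over all tested genes, 42.6% had a positive change, 7.60% had mutants all above controls and 0.818% passed the threshold. Among the 1350 protein-coding genes within the family's bounds of length and level, 64.4% had a positive change and 20.7% had mutants all above controls. Of 17 assembly factors listed, 15 were in the table, 12 had a positive change, 3 had mutants all above controls, 0 passed the threshold and the median log2 change was 0.13. Ndufaf6, needed to assemble complex I, measured 19.0, 16.4 and 17.0 RPKM in controls and 21.6, 19.3 and 24.2 RPKM in mutants (log2 change 0.29 ± 0.11 SE, limma adjusted p = 0.351). Of 41 listed nuclear subunits of complexes II to V, 37 had a positive change, 16 had mutants all above controls, 0 passed the threshold and the median was 0.14. That list leaves out Cox4i2, a complex IV subunit given below with the HIF-linked genes. Cox4i2 was lower in mutants and passed (log2 change -1.29, limma adjusted p = 0.00436). Uqcrq, a small subunit of complex III, measured 76.5, 79.9 and 81.9 RPKM in controls and 103, 120 and 100 RPKM in mutants (log2 change 0.43 ± 0.10 SE, limma adjusted p = 0.111). Of 11 genes that mark mitochondrial content, such as import and outer membrane proteins, 10 had a positive change, 4 had mutants all above controls, 0 passed and the median was 0.20. Phb, prohibitin of the inner membrane, measured 75.9 ± 1.81 RPKM in controls against 89.3 ± 1.21 RPKM in mutants (SD, n = 3 each; limma adjusted p = 0.327). The lists differ from complex I in their counts, and those differences were not tested.

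**Figure D3:**
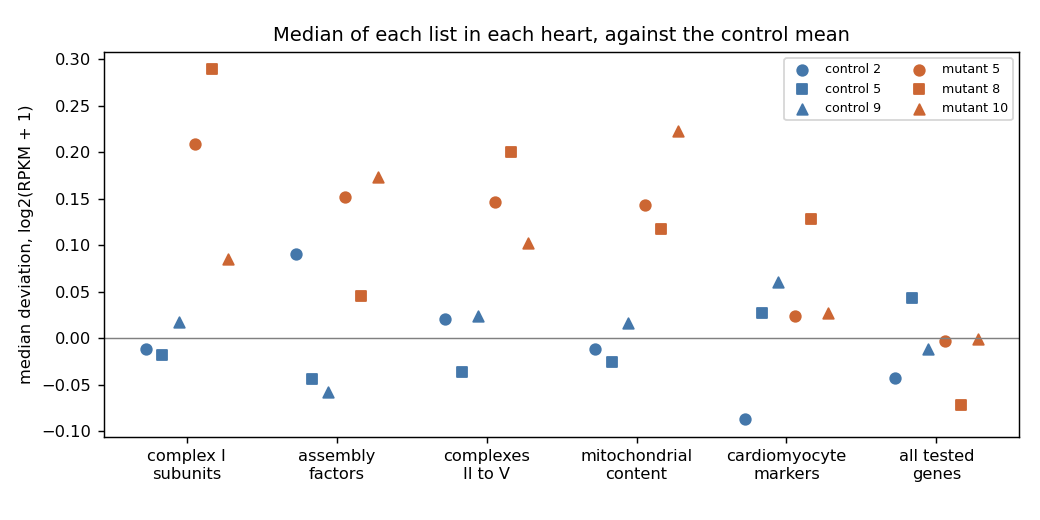
Each point is a heart: the median over a gene list of log2(RPKM + 1) minus the control mean, blue for control and orange for mutant hearts. The mutants are above the controls for complex I, complexes II to V and mitochondrial content, and overlap them for assembly factors, cardiomyocyte markers and all tested genes.

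HIF has known links to a few genes of the respiratory chain. Ndufa4l2, a paralog of Ndufa4 that HIF1 induces under low oxygen and that lowers complex I activity, lies outside the symbol rule. It did not meet the filter on low values, so the main fit has no test of it. It measured 0.679, 1.55 and 1.16 RPKM in controls and 0.488, 0.314 and 0.287 RPKM in mutants. Every mutant was below every control, which held for 1234 of the 13080 tested genes. Cox4i2, the oxygen-sensitive isoform of a cytochrome c oxidase subunit, passed the test. It measured 2.21, 2.33 and 3.60 RPKM in controls and 0.449, 0.455 and 0.612 RPKM in mutants, a log2 change of -1.29 ± 0.15 SE on log2(RPKM + 1), which understates a change at this level (limma, adjusted p = 0.00436). It met the filter on low values through the control hearts alone, so it had to differ to enter. With no filter the adjusted p in limma was 0.0050, and it did not enter the fits that leave out a control, those of 4 hearts or the one with a 5 RPKM minimum. Its common isoform Cox4i1 measured 546 ± 23.9 RPKM in controls against 664 ± 36.6 RPKM in mutants (SD, n = 3 each). Lonp1, the mitochondrial protease that degrades the Cox4i1 protein, measured 16.3, 18.6 and 18.9 RPKM in controls and 22.6, 23.8 and 24.6 RPKM in mutants (log2 change 0.39 ± 0.09 SE, limma adjusted p = 0.137). Higd1a, a hypoxia-induced respiratory chain protein, measured 7.01, 6.83 and 7.65 RPKM in controls and 5.32, 5.87 and 7.10 RPKM in mutants, which overlap (limma, adjusted p = 0.539).

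**Figure D4:**
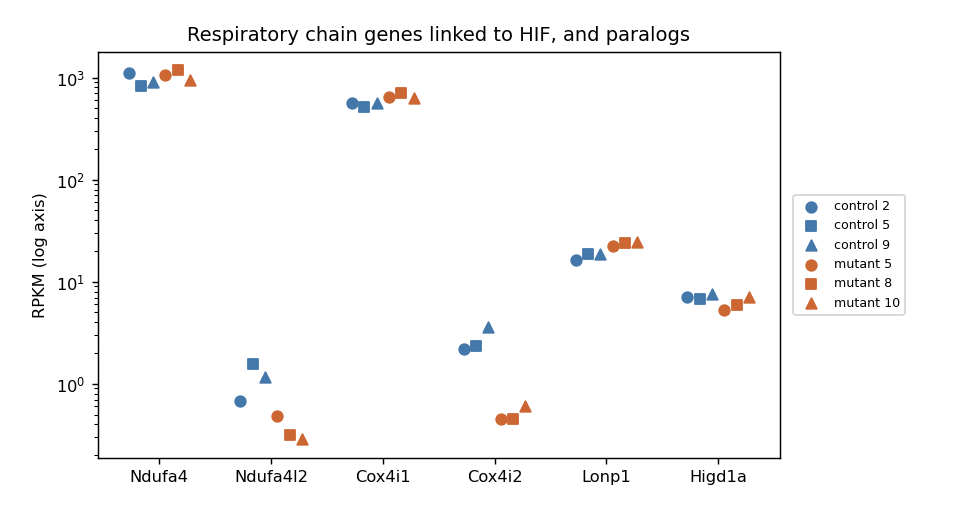
RPKM on a log axis for each heart, blue for control and orange for mutant. Ndufa4l2 and Cox4i2 lie lower in all mutant hearts, Cox4i1 and Lonp1 higher, and Ndufa4 and Higd1a overlap between the genotypes.

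Marker genes of the cell types in a heart are given beside these values, and their part in the complex I values was not tested. Apart from 1 cardiomyocyte gene, 0 markers of the 5 lists passed the threshold in limma. At an unadjusted p under 0.05, 8 macrophage, 5 epicardial and mesenchymal and 3 endothelial markers were lower in mutants. The 5 of the epicardial and mesenchymal list were Col1a1, Col1a2, Col3a1, Postn and Dcn. Its other genes, Wt1, Tbx18, Tcf21, Aldh1a2, Upk3b, Pdgfra and Lum, did not reach that level. At that level 4 of the 15 cardiomyocyte markers were higher and 0 lower, and 0 erythroid markers differed. Of all 13080 genes tested, 819 were lower and 644 higher at that level, and 7513 had a negative change. Of 15 cardiomyocyte markers, 9 had a positive change and the median log2 change was 0.01. Their summed level was 21757 to 23884 RPKM in controls against 23493 to 25435 RPKM in mutants. Among them Nppa, the atrial natriuretic peptide, passed the threshold with 1036 ± 48.3 RPKM in controls against 1740 ± 130 RPKM in mutants (SD, n = 3 each; log2 change 0.75 ± 0.10 SE, limma adjusted p = 0.0118). Its call was lost, at a like size, in the fits without control 2 (0.71), control 5 (0.75) or mutant 10 (0.70), and in both fits of 4 hearts (0.70 and 0.77). Of 12 epicardial and mesenchymal markers, 11 had a negative change and their summed level was 494 to 537 RPKM in controls against 312 to 431 RPKM in mutants. All 10 macrophage markers tested had a negative change, with sums of 39.1 to 46.2 against 14.2 to 33.5 RPKM. Of 11 endothelial markers 9 had a negative change, with sums of 156 to 183 against 144 to 169 RPKM. Of 8 erythroid markers tested 5 had a negative change, with overlapping sums of 13963 to 16571 against 11719 to 21063 RPKM. No marker in the table was listed at 0 in any heart. With the haemoglobin genes taken out of the total, complex I had 33 genes positive, against 33.7% of tested genes, and 16 with mutants all above controls, against 4.61%. The median was then 0.15, and over all tested genes -0.07.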

How the data were processed

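Per the labels, total RNA of dissected hearts was extracted in TRIzol and libraries followed standard Illumina protocols. Per the submitters' processing notes, the tools were Trim Galore and TopHat2 and the build mm10; no version or role is stated. The gene counter, its annotation and its use of strand were not given in the sources used here. Gene values came as 1 table: the authors deposited an RPKM value per gene and heart. Its header names no unit, and the unit was read from the low values of genes with 1 listed exon, 150 to 281 per heart. At a step chosen for each heart, 88.97 to 96.39% of them lay within 0.1 read of whole multiples of 1 read over the exon's length. The median over the steps searched was 19.27 to 20.2%. The chosen step gave the implied reads. Of the 15118 gene identifiers, 14877 were in GENCODE M21.

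From these values, a gene was kept where 3 or more hearts had 1 RPKM or more (13080, with all 37 complex I genes). log2(RPKM + 1) was fitted with limma 3.58.1 in R 4.3.3 (trended prior, all 6 hearts, no covariate) and Benjamini-Hochberg adjusted over all genes tested, two-sided. In simulated data over the same 13080 genes, changed genes were drawn at random and noise was independent between genes. The fit recovered 3.6% of those given a log2 change of 0.3, 46.0% at 0.6, 82.4% at 1 and 96.8% at 2. Of the calls, 5.38% were false. Figures were drawn with Python 3.11.15 and matplotlib 3.10.9.

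The members and lists were chosen with earlier results of these data known. Named are the 7 core subunits, the 3 genes of each letter group with the smallest p, the 3 lowest changes, the highest and lowest level, Ndufa4, Ndufab1, the HIF-linked genes, and the gene with the smallest p of each other list. Others were named after their values were seen. A member and a marker gene that this rule names are not reported here singly; they stay in the counts. Of the lists' genes with the smallest p not printed in the report, Cldn5 (2.57 to 1.08 RPKM), Col1a2 (81.8 to 46.6 RPKM) and Fcer1g (5.11 to 2.86 RPKM), control to mutant means, did not pass, though Cldn5, Col1a2 and Fcer1g did in some alternatives. Alternatives were other pseudocounts, filters, scalings and priors, leaving out each heart, and 2 sets of 4 hearts added after seeing the data.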

Additional observations from a re-analysis of the deposited data

How the results depend on the processing

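Over the 16 alternatives, complex I genes past the threshold stayed at 0, those with a positive change numbered 33 to 37, those with mutants all above controls 16 to 29 (while the share over all tested genes was 4.61% and 21.1% in those settings), and the median log2 change was 0.15 to 0.26. The count over all genes, 107, ranged from 40 to 198 with 1 heart left out and was 53 among the 4 hearts that express chromosome Y genes, a set chosen after seeing the data like the other set of 4. Among the members, direction turned for Ndufs1, Ndufv2 and Ndufv3, and also for Ndufs4 (-0.08 to 0.11 over all settings) and Ndufa3 (-0.0013 to 0.28). Median centring shifts all genes alike, so values near 0 had to turn. It moves the median of all tested genes from -0.03 to 0.01 and the share with a positive change from 42.6% to 51.5%, and gave 0.0014 for Ndufs1, 0.015 for Ndufv2 and 0.020 for Ndufv3. Leaving out 1 heart gave -0.12 to 0.10 for Ndufs1, -0.12 to 0.13 for Ndufv2 and -0.12 to 0.065 for Ndufv3. Without control 2 and mutant 8, Ndufs1 was 0.099 and Ndufv2 0.21, and among those that express chromosome Y genes they were 0.046 and 0.016. The cause was not tested. No paired analysis was possible because the genotypes share only 1 sample number, 5. With 3 hearts a genotype, changes of 0.3 given to genes drawn at random from all those tested were rarely called in simulated data (3.6%). That rate was not computed for the complex I genes alone. The 0 calls do not show that the genes did not differ. No alternative varied the depth.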
